A study of Mus musculus with 2 samples.

Results

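The long non-coding RNAs described here are the 35 rows, of 158 in the deposited table, whose Ensembl identifier has a long non-coding gene type in GENCODE M21, a catalogue of annotated mouse genes on assembly GRCm38. They comprised 16 lincRNA genes, 13 antisense genes, 4 processed transcripts, 1 sense intronic gene and 1 bidirectional promoter gene. The lincRNA type is named for lying between genes, but Gm10710 and Gm26730 of this type overlap exons of a protein-coding gene. Loci of the class TEC, pseudogenes and small RNAs were left out. Neural stem cells were isolated from the brain of embryonic day 12 mice of the ICR strain, cultured for 1 day in proliferation medium and infected with lentivirus. Both groups thus carried a lentivirus, with the construct Piscor in the control and Nap1l1-shRNA1, a short hairpin RNA against the histone chaperone gene Nap1l1, in the other. There was 1 poly(A)-enriched library per group and 1 hairpin construct, and the labels do not say how many embryos or cultures each library came from. The comparison asks which transcripts differ when the hairpin is expressed.

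Long non-coding RNAs are transcripts that are made and processed much like messenger RNA but are not known to encode a protein. Some act in the nucleus on transcription or chromatin near their own gene, others in the cytoplasm, and for most no role is known. In the developing brain many are expressed at low levels from the neighbourhood of regulatory genes, and some start beside a protein-coding gene and are read in the other direction. For nearly all the RNAs below no function is established, so each is described by its neighbouring protein-coding gene.

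The shRNA library held 8777836 reads and the control 8325166, so that 1 read was worth 0.114 CPM (reads scaled to the library total) and 0.12 CPM. All 158 listed genes were marked as higher in the shRNA library by the authors, and only those selected genes were analysed. A higher level in the shRNA library was therefore fixed by the listing for each RNA and is not a finding. Nap1l1 itself and 10 marker genes of neural stem cells were not among the listed genes, so neither the knockdown nor the labelled cell type could be checked. The table names no strand setting. Where 2 genes on different strands overlap, a read there could come from either.

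The sequences of 3 start regions are shown first, because each of these RNAs starts back to back with a protein-coding gene. They are the 3 with the most reads of the 5 head-to-head RNAs that have a RefSeq window; the others are Gm16062 and Gm14164. The sequences are RefSeq promoter windows (GRCm38.p6, 250 bases before to 50 after the start), 5′ to 3′ on the strand of the RNA. The window of Gm32391 is at chr1:164458273-164458572 (plus strand), that of 2810403D21Rik at chrX:108834228-108834527 (plus strand) and that of Gm26559 at chr13:99516384-99516683 (plus strand). Capitals mark matches to CCAAT or GGGCGG on either strand.
Gm32391: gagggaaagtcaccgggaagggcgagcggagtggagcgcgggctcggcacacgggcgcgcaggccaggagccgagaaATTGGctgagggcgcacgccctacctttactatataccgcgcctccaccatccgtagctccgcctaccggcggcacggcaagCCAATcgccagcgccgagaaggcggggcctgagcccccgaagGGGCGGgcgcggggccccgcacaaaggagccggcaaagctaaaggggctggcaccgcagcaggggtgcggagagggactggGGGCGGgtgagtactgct
2810403D21Rik: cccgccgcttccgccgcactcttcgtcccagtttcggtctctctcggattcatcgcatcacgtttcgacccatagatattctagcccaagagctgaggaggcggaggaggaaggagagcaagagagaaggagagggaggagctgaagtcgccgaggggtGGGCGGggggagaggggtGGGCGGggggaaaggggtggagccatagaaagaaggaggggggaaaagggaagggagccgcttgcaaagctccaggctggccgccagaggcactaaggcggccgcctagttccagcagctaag
Gm26559: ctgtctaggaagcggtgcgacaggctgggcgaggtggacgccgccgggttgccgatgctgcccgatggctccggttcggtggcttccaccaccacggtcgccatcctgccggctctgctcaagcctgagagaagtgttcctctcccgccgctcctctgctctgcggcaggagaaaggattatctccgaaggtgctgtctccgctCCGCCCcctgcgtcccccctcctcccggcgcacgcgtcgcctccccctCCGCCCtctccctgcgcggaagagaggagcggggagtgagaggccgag

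These windows share 267 bases with the promoter window of Atp1b1 for Gm32391, 231 bases with that of Brwd3 for 2810403D21Rik and 131 bases with that of Map1b for Gm26559. In each pair the window is thus partly the same DNA, read in opposite directions. Their GC content was 70.3%, 62.7% and 69.3%, and their ratio of observed to expected CpG was 0.879, 0.694 and 0.837, against a median of 0.384 over 32851 RefSeq windows. GGGCGG, the core of the GC box, was found in all 3 on at least 1 strand, but not in the windows of Gm16062 and Gm14164, whose CpG ratios were 1.01 and 0.256. TATAAA and CACGTG were found in none of the 3, and CCAAT only in Gm32391, at 2 places. The RefSeq start of Gm32391 lies 3919 bases before the start given in the table, so its window describes another annotated start of this RNA.

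RefSeq windows were found for 19 of the 35 RNAs. Of these, 8 held GGGCGG (42.1%), against 21.6% of the 3616 annotated genes of the same types with a window and 35.7% of all windows. CCAAT was found in 4 of 19, against 36.8% of the annotated genes of these types and 37.4% of all windows. TATAAA was found in 2 of 19, against 14.4% and 13.6%, and CACGTG in 0, against 6.53% and 7.15%. None of the 4 motifs contains another, and both strands were searched. The median CpG ratio was 0.505 over the 19 windows and 0.282 over the 3616. The RefSeq start lies 12954 bases from the table's start for 4930519L02Rik, 4435 for Gm2824, 3919 for Gm32391 and 2227 for Gm26793. The windows of these RNAs thus describe another annotated start. Those of Gm2824 and Gm32391 hold CCAAT, and that of Gm32391 holds GGGCGG. For the other RNAs with a window the gap is at most 298 bases. These shares are descriptions of letters in a window, and no test was made.

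The 35 RNAs were read rarely in both libraries. They held 424 shRNA reads and 102 control reads, out of 2214 and 644 for all listed genes. The median RNA had 9 shRNA reads (range 5 to 53) and 1 control read (0 to 22), which is 1.03 and 0.12 CPM. The 83 listed protein-coding genes had medians of 14 and 4 reads. Each value rests on 1 library, so nothing here shows how much a second control culture would have differed.

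**Figure D1:**
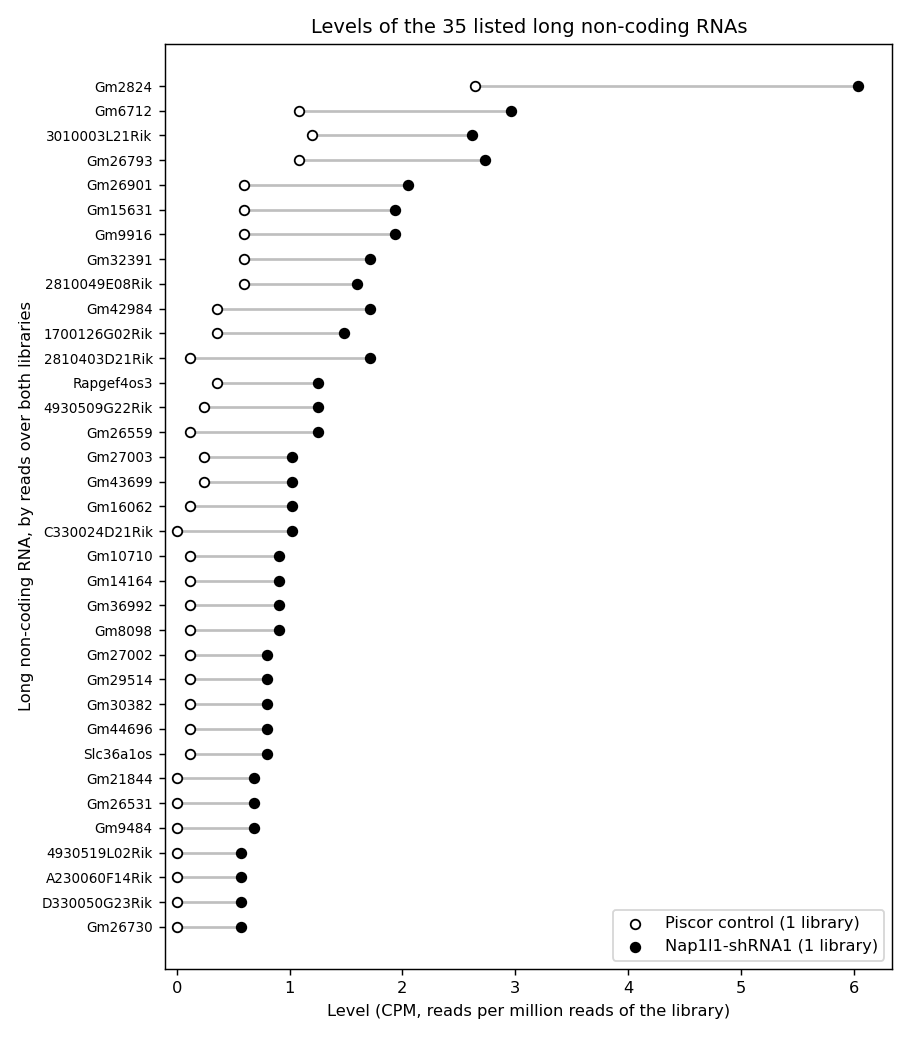
Level in CPM (x axis) of each of the 35 RNAs (y axis, ordered by reads over both libraries) in the shRNA library (filled points) and the control (open points), 1 library each. Gm2824 stands at 6.04 and 2.64 CPM, and every other RNA lies below 3 CPM in both libraries.

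Gm2824, a lincRNA gene (ENSMUSG00000097452, chromosome 15, 24981620 to 25027358, minus strand), had the most reads, 53 with the hairpin and 22 without. Its level was 6.04 CPM against 2.64 CPM, and the ratio was 2.28, with an exact 95% counting interval of 1.37 to 3.95. The interval is a conditional binomial (Clopper-Pearson) one from the reads and library totals, and covers counting error only. It takes no account of the listing of genes by these same counts. The nearest protein-coding gene, Basp1, which encodes a membrane protein of growth cones, lies 336 kb away. The authors' deposited table gives Gm2824 a protein match to a LINE-1 ORF2 protein, of a repeat family with many near-identical copies. The count of Gm2824 could therefore include reads from other copies, which was not tested.

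Gm6712 (ENSMUSG00000072761, chromosome 17, 17294443 to 17319511, plus strand) came next, with 26 reads against 9, or 2.96 against 1.08 CPM. Its ratio was 2.74 (1.24 to 6.65), and its nearest neighbour Riok2, an atypical kinase of ribosome assembly, lies 54.8 kb away. The authors' deposited table gives Gm6712 a protein match to a zinc finger protein. Whether its count includes reads from other genes was not tested. Divided by the length of its annotated exons, Gm6712 had the highest level of the 35 in both libraries, 4.99 and 1.82 CPM per kb. On the same scale Gm2824, whose exons span 5719 bases against 594 in Gm6712, had 1.06 and 0.462 CPM per kb, and in the shRNA library 1.71 by the length of its longest transcript. The order by reads and the order by level per kb thus differed at the top.

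Of the other RNAs in the 10 with the most reads, 3 lay apart from any protein-coding gene. Gm26901 (chromosome 1, 7349406 to 7397869, minus strand) was read 18 times against 5, with a ratio of 3.41 (1.22 to 11.8), and lies 176 kb from Pcmtd1. Gm9916 (chromosome 3, 118434770 to 118435997, plus strand) had 17 against 5, with a ratio of 3.22 (1.14 to 11.2), and lies 126 kb from Dpyd, which encodes the first enzyme of pyrimidine breakdown. 2810049E08Rik (chromosome 13, 83891208 to 83928710, plus strand) had 14 against 5, and its ratio of 2.66 had an interval that included 1 (0.904 to 9.42). Its nearest neighbour, 224 kb away, is Mef2c, a transcription factor of neurons and muscle.

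In 20 of the 35 RNAs the interval of the ratio lay wholly above 1, against 60.1% of all 158 listed genes. A difference of at least 1 on log2(CPM + 1), which is 2-fold on that scale and gives smaller values than the ratio where reads are few, was met by 3 of the 35, against 6.33% of all listed genes. No control read was found for 8 of the 35, against 24.7% of all listed genes. Of the 35, 6 are marked as significant in the authors' deposited table, against 12% of all listed genes, with adjusted p from 0.00349 to 0.217 over the 35. The first 3 shares, 57.1%, 8.57% and 22.9%, lie near those of the whole table, and the fourth is 17.1%. The listing used the same counts, so nothing is read from these shares about the RNAs.

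**Figure D2:**
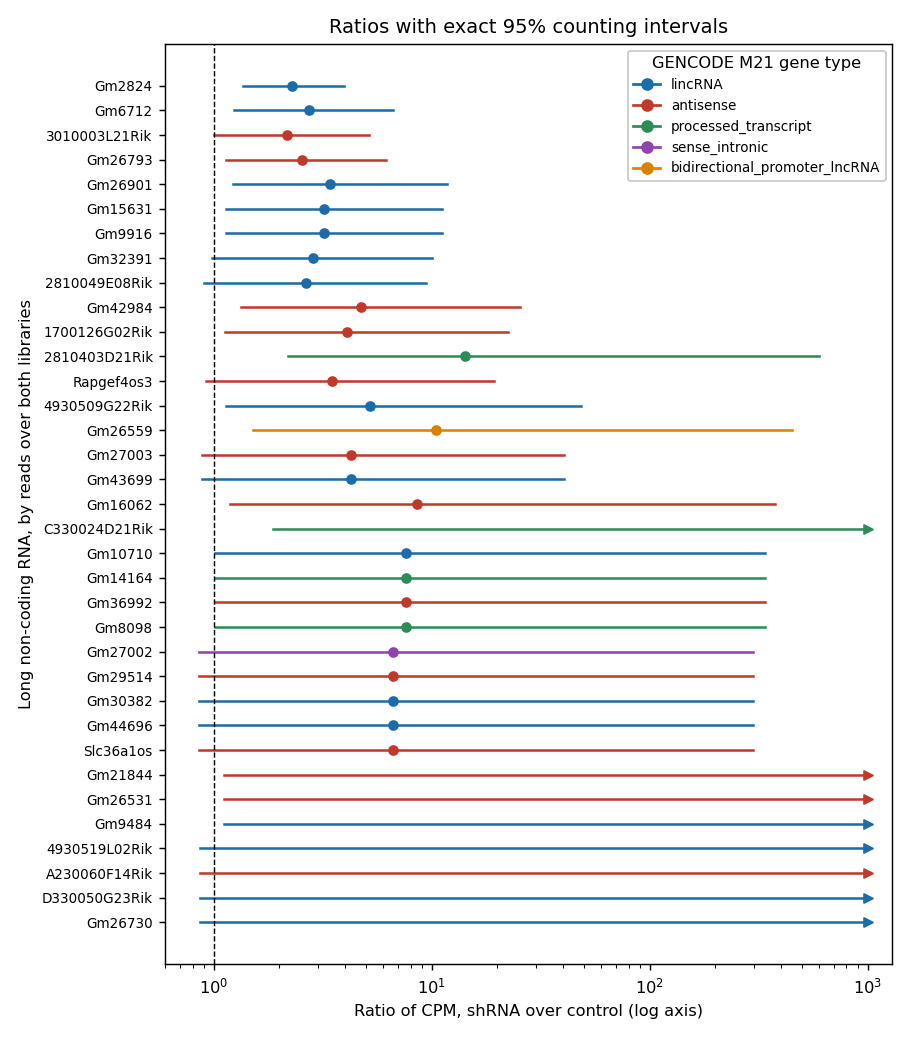
Ratio of CPM, shRNA over control (x axis, log scale), with its exact 95% counting interval for each RNA (y axis, ordered by reads over both libraries); colours give the gene type and an arrow marks an interval with no upper limit, where the control had 0 reads. Ratios run from 2.18 to 14.2, and 20 of the 35 intervals lie above the dashed line at 1.

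Among RNAs with a control read and at least 10 reads over both libraries, 4 had the highest ratios, 3 of them with 1 control read. 2810403D21Rik (ENSMUSG00000086629, chromosome X, 108834478 to 108974906, plus strand) was read 15 times against 1, or 1.71 against 0.12 CPM, a ratio of 14.2 (2.19 to 599). Per kb of exon it had the lowest level of the 35 in the shRNA library, 0.205 CPM per kb, but by its longest transcript the value is 0.511 and no longer the lowest. Gm26559 (ENSMUSG00000097027, chromosome 13, 99516728 to 99521760, plus strand) was read 11 times against 1, or 1.25 against 0.12 CPM, a ratio of 10.4 (1.52 to 449). Gm16062 (ENSMUSG00000087249, chromosome 11, 59810080 to 59818491, plus strand) was read 9 times against 1, with a ratio of 8.54 (1.18 to 374). 4930509G22Rik (ENSMUSG00000096959, chromosome 16, 11178176 to 11192292, plus strand) was read 11 times against 2, with a ratio of 5.22 (1.14 to 48.4).

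At the other end, 3010003L21Rik (ENSMUSG00000085355, chromosome 6, 148944867 to 148947129, plus strand) had 23 reads against 10, and its ratio of 2.18 had an interval that just included 1 (0.999 to 5.13). It is antisense to Sinhcaf, a component of the Sin3 histone deacetylase complex, and 13.6% of its exon bases lie over exons of that gene. Of the 4 lowest ratios among RNAs with at least 10 reads, 2 had intervals above 1, those of Gm2824 and Gm26793.

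The 8 RNAs without a control read had 5 to 9 reads in the shRNA library. A control count of 0 allows a level of up to 0.36 CPM (3 reads), so these RNAs are not shown to be absent from control cells. C330024D21Rik (ENSMUSG00000107385, chromosome 5, 67463897 to 67477632, plus strand), 35.6 kb from Bend4, had 9 reads, and the lower limit of its ratio was 1.87. Gm21844, antisense to Rbm14, and Gm26531, inside Ttll5, each had 6 reads and a lower limit of 1.12. Gm9484 also had 6 reads. 4930519L02Rik, A230060F14Rik, D330050G23Rik and Gm26730 had 5 reads each, and their lower limit of 0.869 lay below 1.

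Genes were listed by p and size of change in these same counts, so a gene with few reads could be listed only with a large ratio. The fall of the ratio with reads follows from that listing and is given as a description. Among the 27 RNAs with a control read the median ratio was 4.74, against 3 in the 66 protein-coding genes with a control read and 3.48 in all 119 listed genes with one. Of the 35 RNAs, 51.4% had 5 to 10 reads over both libraries, against 33.7% of the listed protein-coding genes. In that range the median ratio was 7.11 in the RNAs and 7.59 in the protein-coding genes. With 11 to 20 reads the medians were 4.27 and 3.79, and with 21 to 75 reads they were 2.74 and 2.33. These ranges were chosen after the values were seen, and no test was made.

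**Figure D3:**
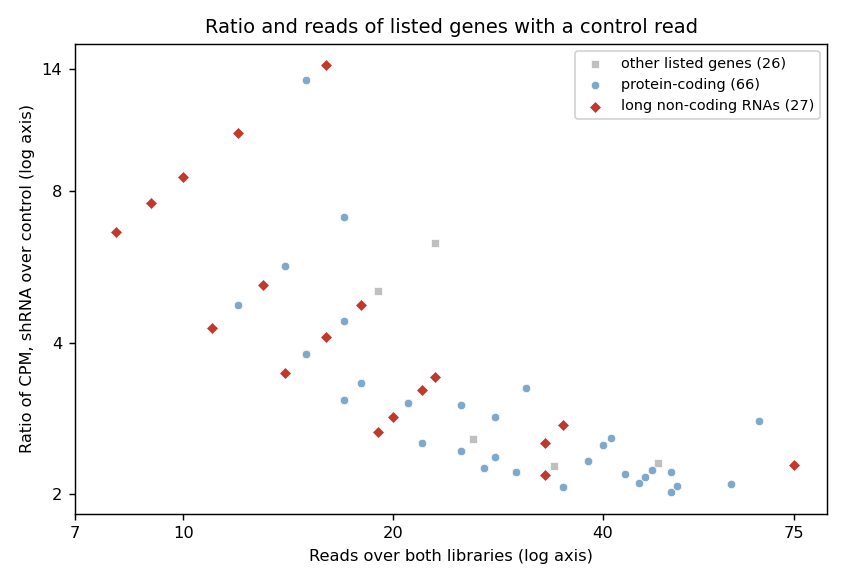
Ratio of CPM, shRNA over control (y axis, log scale), against reads over both libraries (x axis, log scale) for the 119 listed genes with a control read; symbols coincide where genes have the same pair of counts. Red diamonds are the 27 long non-coding RNAs, which lie in the same band as the protein-coding genes. Their highest ratio is 14.2 at 16 reads and their lowest 2.18 at 33 reads, and Gm2824, with the most reads, has 2.28 at 75 reads.

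By gene type, the 16 lincRNA genes held 223 reads against 63, and the interval lay above 1 in 8 of them. The 13 antisense genes held 143 against 34, with 7 intervals above 1. The 4 processed transcripts held 40 against 3, with 4 intervals above 1; they are 2810403D21Rik, C330024D21Rik, Gm14164 and Gm8098. The sense intronic gene Gm27002 had 7 reads against 1, with an interval from 0.853. The bidirectional promoter gene was Gm26559. Over all 158 listed genes the interval lay above 1 in 60.1%, and nothing is read from these counts about gene type.

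Each RNA was then placed against its nearest protein-coding gene. Exons overlapped exons of that gene on the opposite strand in 13 of 35 RNAs (37.1%), against 22.3% of the 10153 annotated genes of these types. Head-to-head starts within 5 kb, with no overlap of the gene bodies, were found in 6 (17.1%), against 6.33%. The RNA lay inside an intron in 3 (8.57%, against 13.2%), overlapped the gene body otherwise in 1, and lay apart in 12 (34.3%, against 53.0%). An opposite-strand protein-coding start lay within 1 kb of the start of 13 RNAs (37.1%), against 13.3% of the annotated genes. The RNAs were placed by the table's positions and the annotated genes by those of GENCODE M21, which were identical for 32 of the 35 RNAs. By the table's position 2810403D21Rik is counted as head to head, though its M21 exons overlap those of Brwd3. The annotated genes include many that these cells may not express, and no test of these differences was made.

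**Figure D4:**
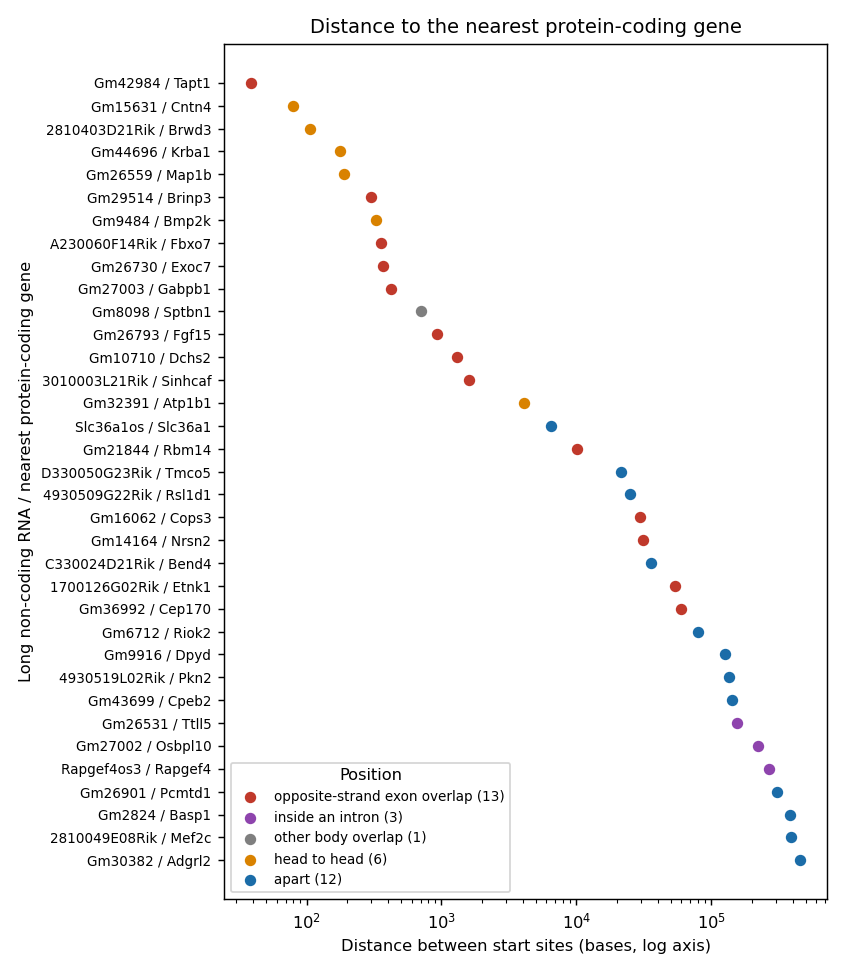
Distance in bases (x axis, log scale) between the start of each RNA and that of its nearest protein-coding gene (y axis, pairs ordered by distance), coloured by position. Distances run from 39 bases for Gm42984 and Tapt1 to 455 kb for Gm30382 and Adgrl2, and the 6 head-to-head pairs lie at 79 to 4087 bases.

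The head-to-head RNAs held 71 shRNA reads and 13 control reads. The interval lay above 1 in 4 of the 6, against 60.1% of all 158 listed genes. Gm15631 starts 79 bases from Cntn4, which encodes contactin 4, an axonal adhesion molecule, and had 17 reads against 5, a ratio of 3.22 (1.14 to 11.2). 2810403D21Rik starts 106 bases from Brwd3, which encodes a bromodomain protein; in GENCODE M21, whose model of this RNA differs from the table's, 48 exon bases overlap. Gm26559 starts 188 bases from Map1b, the microtubule-associated protein of growing axons. Gm32391 starts 4087 bases from Atp1b1, the beta 1 subunit of the sodium pump, and had 15 reads against 5, a ratio of 2.85 (0.983 to 10). Gm44696, 178 bases from Krba1, had 7 reads against 1. Gm9484, 325 bases from the kinase gene Bmp2k, had 6 against 0.

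Another 3 RNAs were head to head with a protein-coding gene that was not the nearest by gene body. 4930509G22Rik starts 1783 bases from Zc3h7a, while the end of Rsl1d1, a nucleolar protein gene, lies 678 bases away. Gm16062 starts 64 bases from Flcn, the folliculin gene, and its other end overlaps Cops3, a subunit gene of the COP9 signalosome. Gm14164 starts 1637 bases from Trib3, a stress-induced pseudokinase gene, and overlaps Nrsn2; it had 8 reads against 1. None of these neighbours is a listed gene, and their levels were not analysed here.

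The 13 RNAs with exons over an opposite-strand exon held 140 reads against 32. The interval lay above 1 in 8 of them, against 60.1% of all 158 listed genes. The share of exon bases overlapped by any gene on the other strand ran from 2.82% to 52.6% in these 13 RNAs, with a median of 21.9%. Gm42984, with 15 reads against 3 and a ratio of 4.74 (1.34 to 25.6), overlaps Tapt1 over 40 bases at the shared start region. 1700126G02Rik had 13 reads against 3, and 27.7% of its exon bases lie over Etnk1, ethanolamine kinase 1. Gm10710 had 8 reads against 1 and shares 1299 bases with Dchs2, of the cadherin family, the most of the 35. Gm36992 also had 8 against 1, with an overlap of 16 bases with the centrosome gene Cep170.

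Of the others in this class, Gm27003 had 9 reads against 2 and overlaps Gabpb1, a subunit gene of a transcription factor, over 14 bases. Gm29514 had 7 against 1 and overlaps Brinp3 over 161 bases. Exons of another gene, Gm5263, also lie over its exons on the other strand, and its overlapped share of 25% includes both. Without control reads were Gm21844, with the largest overlapped share (52.6%), A230060F14Rik at the ubiquitin ligase gene Fbxo7, and Gm26730 at the exocyst gene Exoc7. No exon of any other gene lay over the exons of 20 of the 35 RNAs. In these 20 the interval lay above 1 in 10 and the median ratio was 4.27, against 10 of 15 and 5.69 in the rest. Over all 158 listed genes the interval lay above 1 in 60.1%, and the median ratio was 3.48 in those with a control read.

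Gm26793 was the single RNA whose nearest protein-coding gene was itself listed. It had 24 reads against 9, or 2.73 against 1.08 CPM, a ratio of 2.53 (1.13 to 6.18). Fgf15, a fibroblast growth factor gene of the embryonic brain on the other strand, had 16 against 5, or 1.82 against 0.601 CPM, a ratio of 3.03 (1.06 to 10.6). Of the 761 exon bases they share, 331 are coding in Fgf15, whose coding length is 654 bases. The shared bases are 27.9% of the exons of Gm26793 and 24.9% of those of Fgf15. How many of the reads fall in them was not tested, since the table gives 1 count per gene.

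Inside or over gene bodies without exon overlap were 4 RNAs. Rapgef4os3 had 11 reads against 3 and lies in Rapgef4, a cyclic AMP-activated exchange factor gene. Gm27002 lies in Osbpl10 on the same strand, so that unspliced Osbpl10 RNA covers it. Gm26531 lies in Ttll5, a tubulin modifying enzyme gene. Gm8098 had 8 reads against 1 and overlaps Sptbn1, a spectrin gene, with starts 711 bases apart.

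Of the 12 RNAs that lay apart, which held 181 reads against 52, 6 had an interval above 1, against 60.1% of all 158 listed genes. Beside those already described, Gm43699 had 9 reads against 2, 86.7 kb from Cpeb2, a translational regulator gene. Gm30382 had 7 against 1, 294 kb from Adgrl2, which encodes latrophilin 2. Slc36a1os had 7 against 1 and lies 6486 bases from the amino acid transporter gene Slc36a1. D330050G23Rik lies 7.66 kb from Tmco5 and 4930519L02Rik 136 kb from the kinase gene Pkn2.

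Listed genes of any type lay within 1 Mb of 7 of the 35 RNAs, and of 32 of all 158 listed genes. Gm42984 and Gm43699 are neighbours in this sense, 847 kb apart on chromosome 5. Slc36a1os lies 52.7 kb from Fat2, a cadherin gene with 16 reads against 5, and 281 kb from Gpx3, an antioxidant enzyme gene with 35 against 16. 4930519L02Rik lies 495 kb from Gbp5, and 1700126G02Rik 767 kb from the TEC locus Gm44068. These distances hold many genes that are not listed, and nothing was read from them.

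The authors' deposited table gives a UniProt match for 12 of the 35 RNAs. For 6 of them it is the product of the overlapping gene on the other strand: Gm26793 (Fgf15), 1700126G02Rik (Etnk1), Gm16062 (Cops3), Gm14164 (Nrsn2), Gm21844 (Rbm14) and A230060F14Rik (Fbxo7). For 3 it is a protein of a LINE-1 element or retrovirus: Gm2824, 4930519L02Rik and Gm26901, whose reads could therefore be shared with other copies. For the other 3 it is a zinc finger protein (Gm6712), a protocadherin (Gm10710) or an acidic leucine-rich nuclear phosphoprotein (Gm29514). Whether these RNAs share reads with other genes was not tested. The best nucleotide match is a full-length RIKEN cDNA for 16 RNAs, 6 of them from embryos. Gm2824, Gm6712 and Gm9916 match cDNAs from the spinal ganglion of 12 day embryos, Gm30382 one from the spinal cord and 3010003L21Rik one from the head at the same age.

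The libraries were enriched for poly(A) RNA, so the annotated 3′ ends were searched for AATAAA, the most common poly(A) signal, on the RNA's own strand. It was found in the last 40 bases of the longest transcript of 14 of the 35 RNAs (40%), against 31.7% of the 10153 annotated genes of these types. As examples of such ends, 5 are shown in order of reads, the fifth, Gm10710, being tied with Gm14164 at 9 reads; capitals mark the match nearest to the end. Sequences are from GENCODE M21 transcripts, at chr6:148947090-148947129 (plus strand), chr6:143201397-143201436 (minus strand), chr2:72244965-72245004 (minus strand), chr2:126683766-126683805 (plus strand) and chr3:83125276-83125315 (minus strand), in this order.
3010003L21Rik: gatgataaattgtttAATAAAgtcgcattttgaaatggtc
1700126G02Rik: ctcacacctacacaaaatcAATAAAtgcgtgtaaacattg
Rapgef4os3: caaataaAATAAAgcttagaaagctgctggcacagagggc
Gm27003: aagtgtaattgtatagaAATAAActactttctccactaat
Gm10710: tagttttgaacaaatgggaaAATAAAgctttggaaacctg

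The match begins 25 bases before the annotated end in 3010003L21Rik, 21 in 1700126G02Rik, 33 in Rapgef4os3, 23 in Gm27003 and 20 in Gm10710. Neither Gm2824 nor Gm6712, the RNAs with the most reads, has it in these 40 bases. A run of at least 10 adenines was found in the longest transcript of 3 RNAs, 3010003L21Rik, Gm15631 and Gm10710 (8.57%), against 8.63% of the annotated genes. The longest transcripts had a median of 2 exons in both sets, and 5 of the 35 had a single exon (14.3%, against 9.75%). The median length of the longest transcript was 1710 bases, against 978, and the median GC content was 46.9% in both sets.

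**Figure D5:**
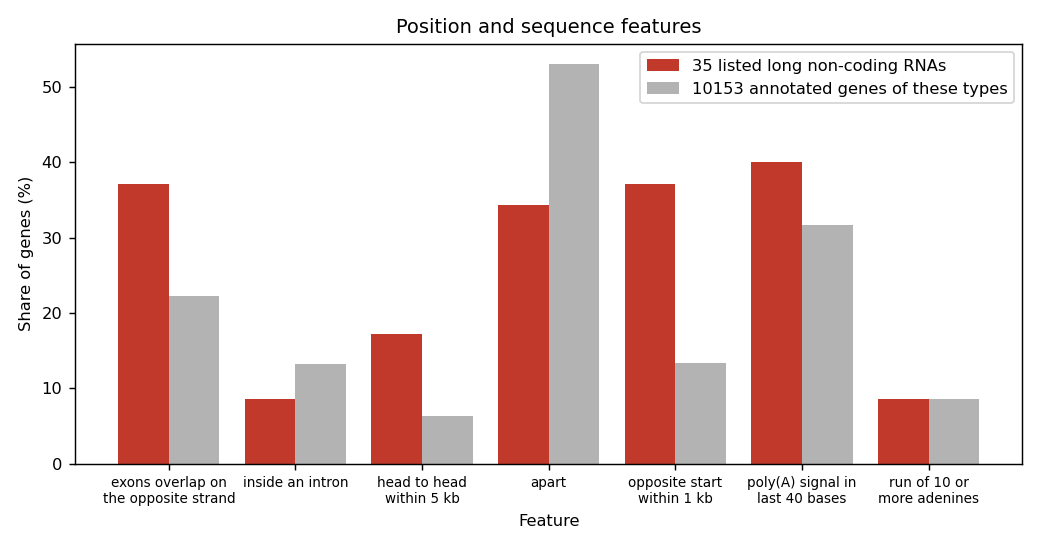
Share of genes in percent (y axis) with each feature of position or sequence (x axis) among the 35 RNAs (red) and the 10153 annotated genes of the same types (grey). An opposite-strand start within 1 kb is seen in 37.1% against 13.3%, and a run of adenines in 8.57% against 8.63%.

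Of 59 known long non-coding RNA names chosen for brain, imprinting or chromatin, 52 were found in the annotation and 0 among the listed genes. Their levels were not analysed here, and a gene that is not listed is not thereby unchanged.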

How the data were processed

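Both libraries were analysed from 1 deposited table. HTSeq 0.6.0, Bowtie 1.0.1 and TopHat2 2.0.12 are named, without a role, per the submitters' processing notes; the genome build and strand setting are not given in the sources used here. Per the file headers, the authors deposited raw read counts and normalized values, which are CPM: each equals the count divided by a whole library total. The fold change (a ratio), the log2 fold change, the p-value and the adjusted p-value are the authors' deposited values. Their test is not stated, and they listed genes by p under 0.05 and size. For the 8 RNAs without a control read, the deposited log2 fold change is not the log2 of the deposited fold change. For C330024D21Rik they are 4.09 and 300, and how a control count of 0 was handled is not stated.

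Of 158 identifiers, 157 matched GENCODE M21, and the positions of 32 of the 35 RNAs were identical to it. Neighbours were found from the table's positions with M21 exons. Ratios, exact 95% intervals (SciPy 1.17.1) and TMM factors (edgeR 4.0.16, as an alternative only) were computed here. With 1 library per group no test was made. The interval was tested on simulated counts that were not filtered as the listed genes were. Its coverage for genes listed by these same counts was therefore not tested. The position classes were tested on made-up genes. Values are given in full for the 10 RNAs with the most reads, the 4 highest and 4 lowest ratios with at least 10 reads and a control read, 3 without control reads and any with a listed neighbour. Members and lists were chosen with earlier results of these data known. No marker of neural stem cells, intermediate progenitors, neurons, interneurons, astrocytes, oligodendrocytes, microglia, endothelial or mesenchymal cells was listed (0 in each list). Repeat content of exons was not computed, as no genome sequence was used here.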

Additional observations from a re-analysis of the deposited data

How the results depend on the processing

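The limits are 1 library per group, few reads per RNA and a table of genes listed for being higher. The 20 intervals above 1 became 34 with a mid-p interval and 5 with a 99% interval. They were 12 with at least 10 reads, 3 with at least 30 reads and 10 among RNAs free of other exons, where fewer RNAs were counted. The 3 RNAs higher by 2-fold with a pseudocount of 1 CPM became 35 with 0.1 CPM, and the authors' deposited log2 fold change gives 35 as well. They became 0 with 5 CPM, 0 with at least 30 reads and 0 at a threshold of 1.5 on that scale. TMM and median-ratio scaling centre on the listed genes and move each log2 ratio by -1.79 and -1.80, which removes by construction the direction for which these genes were listed. With either scaling, 0 intervals lay above 1 and 0 RNAs were higher by 2-fold on log2(CPM + 1). Under them the ratio was 0.659 and 0.657 for Gm2824, 0.79 and 0.788 for Gm6712, 0.729 and 0.727 for Gm26793, 0.985 and 0.982 for Gm26901, and 0.93 and 0.927 for both Gm15631 and Gm9916. The ratio was also below 1 for 3010003L21Rik (0.629 and 0.627), 2810049E08Rik (0.766 and 0.764) and Gm32391 (0.821 and 0.818), whose intervals already included 1. It stayed above 1 for 2810403D21Rik (4.1 and 4.09), Gm26559 (3.01 and 3), Gm16062 (2.46 and 2.45), 4930509G22Rik (1.5 under both) and Gm42984 (1.37 and 1.36). The other alternatives left the median ratio (3.45 to 6.64), the counts by position and the count with AATAAA (15 and 18) within 1.5 times. No paired analysis was possible because there is 1 library per group, and for the same reason none could be left out.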
